A study of Homo sapiens with 12 samples.

Results

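The G2/M and mitotic genes are the genes whose products drive cells from G2 into mitosis and carry the chromosomes through it. A set of 57 was chosen by symbol from known function, and all 57 were found among the 17013 genes of the processed table. They were followed across 4 groups of HCC1806 cells, a triple-negative breast cancer line, with 3 mRNA-seq libraries in each group. Cells received non-targeting siRNA (siNT) or MLK4-targeting siRNA (siMLK4), and 24 h later they were given 1 μM doxorubicin for 24 h or vehicle. The sample labels name the vehicle DMSO, as does a supplementary figure legend of the study, and its results text speaks of vehicle. The study's methods, however, describe these cells as untreated. The labels mark the vehicle libraries as time 0 and the doxorubicin libraries as 24 h, so a difference in harvest time, if there was one, cannot be told apart from the drug. MLK4 is the product of MAP3K21, a mixed-lineage kinase of the MAP3K family, and doxorubicin is an anthracycline that traps topoisomerase II on DNA and leaves double-strand breaks. The study asked how loss of MLK4 changes the response of these cells to DNA damage, and the comparisons below ask what happened to the mRNAs of the G2/M program.

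Entry into mitosis is driven by the kinase CDK1 bound to a B-type cyclin. WEE1 and PKMYT1 hold it inactive by phosphorylation, CDC25 phosphatases release it, and after DNA damage checkpoint signalling keeps this switch off. Most mitotic genes are transcribed late in the cycle, through promoters that carry a cell cycle homology region (CHR), which the DREAM and B-MYB complexes and FOXM1 use, often beside CCAAT boxes bound by NF-Y.

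The target of the knock-down was measured first. With vehicle, MAP3K21 had 553.1, 669.6 and 673.6 normalized reads (reads divided by the size factor of the library) under siNT and 103.2, 94.66 and 88.65 under siMLK4. With doxorubicin it had 757.6, 856.1 and 771.6 in siNT cells and 112.8, 138.4 and 94.35 in siMLK4 cells. The siRNA groups did not overlap, and siMLK4 cells held 15.1% of the siNT mean with vehicle and 14.5% with doxorubicin. Basal markers of the line were high in siNT vehicle cells, with means of 20880 normalized reads for the keratin KRT5, 6001 for KRT14, 4837 for TP63 and 6186 for EGFR. The oestrogen receptor ESR1 had 92.72, the progesterone receptor PGR 0 and the leukocyte marker PTPRC 5.479, while ERBB2 had 1459, GATA3 1304 and the fibroblast collagen COL1A1 286.2.

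Transcripts of the 57 genes were abundant. Between 16759025 and 19302248 reads per library fell on the genes of the table, and 55 of the 57 had at least 10 reads in every library. In siNT vehicle cells the median member had 583 normalized reads per kb of exon. TPX2, which targets Aurora A to the spindle, was highest at 2913 reads per kb, followed by the mitotic cyclin CCNB1 at 2061, the anaphase activator CDC20 at 1896 and survivin, BIRC5, at 1766. The phosphatase CDC25C was the lowest of the 55, at 97.25 reads per kb. NUSAP1 and PRC1, a microtubule-binding protein and a crosslinker of the central spindle, had only 7.732 and 10.41 normalized reads in the siNT vehicle mean. A second annotated gene on the same strand covers 99.9% of NUSAP1 and 99.5% of PRC1, so their values are uncertain. The same holds for SPAG5, which RSKR covers in full on the same strand, and for CENPA, of which SLC35F6 covers 46.1%.

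Promoter sequence was not itself used to choose the genes. They were chosen by known function, however, and most mitotic genes carry a CHR, so a high CHR share was not independent of the choice. RefSeq windows from 250 bases before to 50 bases after a transcription start were matched for 45 of the 57 genes. The CHR was searched as TTTGAA or TTCGAA and the CCAAT box as CCAAT, each on both strands. A CHR was present in 35 of the 45 genes, or 77.8%, against 15.5% of the 12030 genes of the table with such a window and 2 of 42 DNA replication genes. A CCAAT box was present in 80.0% of the members, 61.9% of the replication genes and 42.8% of the genes of the table. Both motifs occurred together in 64.4% of the members, in 2 of the 42 replication genes and in 6.53% of the genes of the table. In the narrower window from 100 bases before to 50 after the start, the CHR shares were 75.6%, 0.0% and 6.78%. These letter matches are a description of the promoters and do not show that a site was bound.

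**Figure D1:**
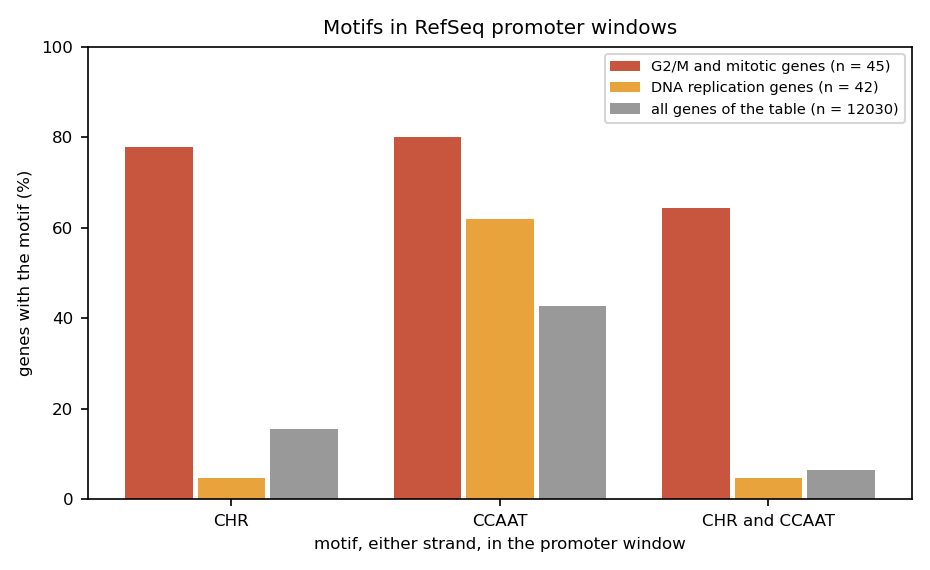
Share of genes (%) with a CHR, a CCAAT box, or both in the RefSeq promoter window, for the 45 G2/M and mitotic genes, 42 DNA replication genes and 12030 genes of the table. The CHR bar reached 77.8% in the G2/M and mitotic genes and stood for 2 of 42 replication genes, while the CCAAT bars were closer, at 80.0% and 61.9%.

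The promoters of 5 of the genes, picked as examples, are printed for 100 bases before and 50 bases after the start. They are from RefSeq, build GRCh38.p14, and read 5′ to 3′ on the strand of the gene. CDC25C has 4 promoter windows, of which 1 is shown. CCNB1, CCNA2 and NCAPH, called lower with doxorubicin in siNT cells below, had no CHR in their windows and are not printed. Capitals mark the CHR (TTTGAA) and the CCAAT box, which reads ATTGG where it lies on the other strand. PLK1 lies at chr16:23678789-23678938 on the plus strand, CCNB2 at chr15:59105046-59105195 on the plus strand, KIF18A at chr11:28108107-28108256 on the minus strand, KIF20A at chr5:138179012-138179161 on the plus strand and CDC25C at chr5:138331755-138331904 on the minus strand.
PLK1: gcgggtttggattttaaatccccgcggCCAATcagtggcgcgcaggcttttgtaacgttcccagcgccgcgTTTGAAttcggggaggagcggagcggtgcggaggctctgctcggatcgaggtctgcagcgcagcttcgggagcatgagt
CCNB2: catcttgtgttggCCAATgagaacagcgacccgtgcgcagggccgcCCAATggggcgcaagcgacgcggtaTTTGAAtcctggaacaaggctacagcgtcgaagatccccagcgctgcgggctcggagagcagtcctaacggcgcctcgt
KIF18A: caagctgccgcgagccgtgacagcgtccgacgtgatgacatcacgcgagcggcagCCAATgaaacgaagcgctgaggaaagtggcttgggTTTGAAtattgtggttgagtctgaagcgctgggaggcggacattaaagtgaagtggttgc
KIF20A: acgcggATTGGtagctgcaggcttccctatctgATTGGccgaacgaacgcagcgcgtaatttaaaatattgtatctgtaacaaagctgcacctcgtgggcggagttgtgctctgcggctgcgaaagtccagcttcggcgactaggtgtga
CDC25C: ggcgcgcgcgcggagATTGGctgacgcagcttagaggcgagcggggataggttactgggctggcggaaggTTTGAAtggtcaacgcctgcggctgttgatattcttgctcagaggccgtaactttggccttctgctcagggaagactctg
In PLK1 the CHR began 29 bases before the start and the CCAAT box 73 bases before it. CCNB2, a B-type cyclin, had its CHR at the same distance of 29 bases, with CCAAT boxes at 54 and 87. CDC25C had a CHR at 30 bases and a reversed CCAAT box at 85, and in KIF18A the motifs lay at 10 and 45 bases. KIF20A had neither TTTGAA nor TTCGAA in its window, but it held TTTAAA, and 2 reversed CCAAT boxes lay at 67 and 94 bases. With TTTAAA counted as CHR letters too, 91.1% of the members had a match. So had 22.8% of the genes of the table and 16.7% of the replication genes.

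In siNT cells, PLK1, CENPA and MAD2L1 had the lowest fold changes with doxorubicin and CDC25C, SPC25 and CDK1 the highest. Calls rest on limma across all 17013 genes and needed both an adjusted p below 0.01 and a log2 fold change beyond ±0.75, whereas rose and fell are used for an adjusted p under 0.05. Of the 57 members 6 were called lower, PLK1, CENPA, MAD2L1, CCNA2, NCAPH and CCNB1, a share near the 10.6% of all genes. None was called higher, against 12.1% of all genes, although 7 were higher at an unadjusted p under 0.05 and limma-voom called 1, CDC25C. At an adjusted p under 0.05, 20 fell and 5 rose, where 27.7% of all genes fell and 29.6% rose. The median log2 fold change of the members was −0.17, against 0.005 for all genes, and turned to 0.07, against 0.25, when libraries were scaled to their totals in place of the size factors. The members thus stayed 0.18 below all genes on that scale. The counts turned with it, to 13 that rose and 9 that fell, with 2 called higher and 2 lower, where 39.8% of all genes rose, 18.2% fell, 24.5% were called higher and 8.91% lower on that scale. CCNA2, CCNB1, MAD2L1 and NCAPH then missed the fold threshold (−0.66, −0.53, −0.70 and −0.65), each still at an adjusted p under 0.01. Among the members that no longer passed an adjusted p under 0.05 were AURKB, CDC20 and FOXM1 (0.25, 0.63 and 0.63). By the size factors, leaving out single libraries gave medians of −0.256 to −0.11 and 5 to 9 members called lower. These are bulk libraries, in which fewer cells in G2 and mitosis and less mRNA per cell cannot be told apart.

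PLK1, the polo-like kinase that promotes mitotic entry and spindle assembly, showed the lowest fold change of the 57. Its siNT libraries held 1205, 1316 and 1270 normalized reads with vehicle and 479.9, 511 and 536.3 with doxorubicin. All 3 treated libraries lay far below the vehicle libraries, and the mean fell to 40.3% of vehicle (log2 fold change −1.23 ± 0.11 SE, adjusted p = 5.9e-07). In siMLK4 cells PLK1 had 1220, 1132 and 937.3 normalized reads with vehicle and 848.8, 823 and 840.1 with doxorubicin. These groups were also separate, and the mean fell to 76.4% of vehicle (−0.36 ± 0.11, adjusted p = 0.0095), which did not pass under library totals (−0.19, adjusted p = 0.17).

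CENPA, the histone H3 variant that marks centromeres, had 1514, 1383 and 1402 normalized reads with vehicle and 699.5, 600.6 and 820.2 with doxorubicin in siNT cells. Its mean fell to 49.3% of vehicle (−0.98 ± 0.14, adjusted p = 4.9e-05), with no overlap of the groups. Under siMLK4 it went from 1272, 1107 and 1449 to 989.6, 781.3 and 1092 normalized reads (−0.40 ± 0.14, adjusted p = 0.024), which was lost without siMLK4 vehicle library 3 or siMLK4 doxorubicin library 2 (adjusted p = 0.087 and 0.13) and under library totals (0.17). MAD2L1, the checkpoint protein that inhibits CDC20 at unattached kinetochores, had 3327, 2692 and 2708 normalized reads with vehicle and 1479, 1314 and 1762 with doxorubicin in siNT cells (−0.92 ± 0.15, adjusted p = 0.00017). Every treated library was under every vehicle library. In siMLK4 cells MAD2L1 had 2140, 2417 and 2543 normalized reads with vehicle and 1442, 1320 and 1995 with doxorubicin (−0.58 ± 0.15, adjusted p = 0.0051).

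Cyclins B1 and A2 fell while CDK1 rose, and CCNB2 passed under neither siRNA (−0.11 and 0.04, adjusted p = 0.46 and 0.77). CCNB1, cyclin B1, had 5200, 5250 and 4595 normalized reads with vehicle and 2830, 2845 and 3149 with doxorubicin in siNT cells, a fall to 58.7% of vehicle (−0.76 ± 0.11, adjusted p = 3.8e-05). It lay just past the fold threshold, which it missed when siNT vehicle library 1 or 2 or siNT doxorubicin library 1 or 2 was left out (−0.72 to −0.74). In siMLK4 cells CCNB1 went from 4941, 5192 and 4733 to 3695, 3267 and 4036 normalized reads (−0.43 ± 0.11, adjusted p = 0.0031, and 0.055 under library totals). Cyclin A2, CCNA2, fell from 3645, 3865 and 4355 to 1812, 1983 and 2644 normalized reads in siNT cells (−0.88 ± 0.14, adjusted p = 0.00012) and from 3445, 3207 and 3015 to 2158, 1941 and 2542 in siMLK4 cells (−0.54 ± 0.14, adjusted p = 0.0049). CDK1 itself rose, from 5215, 4504 and 4504 to 6096, 5964 and 6165 normalized reads in siNT cells (0.36 ± 0.10, adjusted p = 0.0058) and from 4557, 4840 and 5016 to 7669, 7408 and 7812 in siMLK4 cells (0.66 ± 0.10, adjusted p = 5.2e-05). For CDK1, CCNB1 and CCNA2 no treated library overlapped a vehicle library of the same siRNA.

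The activating phosphatases rose with the drug. CDC25C had 334.7, 289.7 and 346.9 normalized reads with vehicle and 622, 601.6 and 437 with doxorubicin in siNT cells (0.68 ± 0.14, adjusted p = 0.00083), the highest fold change of the 57 there. Under siMLK4 it had 506, 510.2 and 533 with vehicle and 1076, 1002 and 800.2 with doxorubicin, the one member called higher (0.82 ± 0.14, adjusted p = 0.00018). Treated and vehicle libraries were separate in both, and the siMLK4 call was lost without siMLK4 doxorubicin library 1 (0.74). CDC25B rose from 2683, 2475 and 2411 to 3099, 3249 and 3058 normalized reads in siNT cells (0.31 ± 0.09, adjusted p = 0.011) and from 2491, 2548 and 2231 to 4119, 3959 and 4021 in siMLK4 cells (0.72 ± 0.09, adjusted p = 1.8e-05). Of the inhibitory kinases, PKMYT1 had 581.1, 653.6 and 713.5 normalized reads with vehicle and 1029, 1047 and 1171 with doxorubicin in siMLK4 cells (0.70 ± 0.17, adjusted p = 0.0028), whereas in siNT cells its libraries overlapped, at 513 to 885.4 with vehicle and 724.9 to 1032 with doxorubicin (0.28 ± 0.17, adjusted p = 0.17). WEE1 rose in siMLK4 cells (0.25 ± 0.09, adjusted p = 0.031, and 0.065 with only the groups compared) and did not pass in siNT cells (−0.10 ± 0.09, adjusted p = 0.39).

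NCAPH, the kleisin subunit of condensin I, fell under both siRNAs. It had 1220, 1598 and 1537 normalized reads with vehicle and 691.2, 709.5 and 968.3 with doxorubicin in siNT cells (−0.84 ± 0.17, adjusted p = 0.00076). Under siMLK4 it had 1401, 1262 and 1058 with vehicle and 592.7, 464.5 and 728.5 with doxorubicin (−1.01 ± 0.17, adjusted p = 0.00018), the one member called lower there. Treated libraries were below vehicle libraries in both. The outer kinetochore subunit SPC25 rose under both, from 311.2, 275.1 and 275 to 419, 433.6 and 408.6 normalized reads in siNT cells (0.48 ± 0.10, adjusted p = 0.00082) and from 357.7, 397.6 and 393.5 to 624.1, 581.2 and 655.9 in siMLK4 cells (0.63 ± 0.10, adjusted p = 9.4e-05). Of its partners in the NDC80 complex, SPC24, from the list of further kinetochore genes, rose as well (0.53 and 0.59, adjusted p = 0.0058 and 0.0030), whereas NDC80 fell in siNT cells (−0.47, adjusted p = 0.0058) and NUF2 in both (−0.53 and −0.35, adjusted p = 0.0029 and 0.031). The falls of NDC80 and NUF2 are by the size factors, and fewer members fell under library totals with either siRNA.

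**Figure D2:**
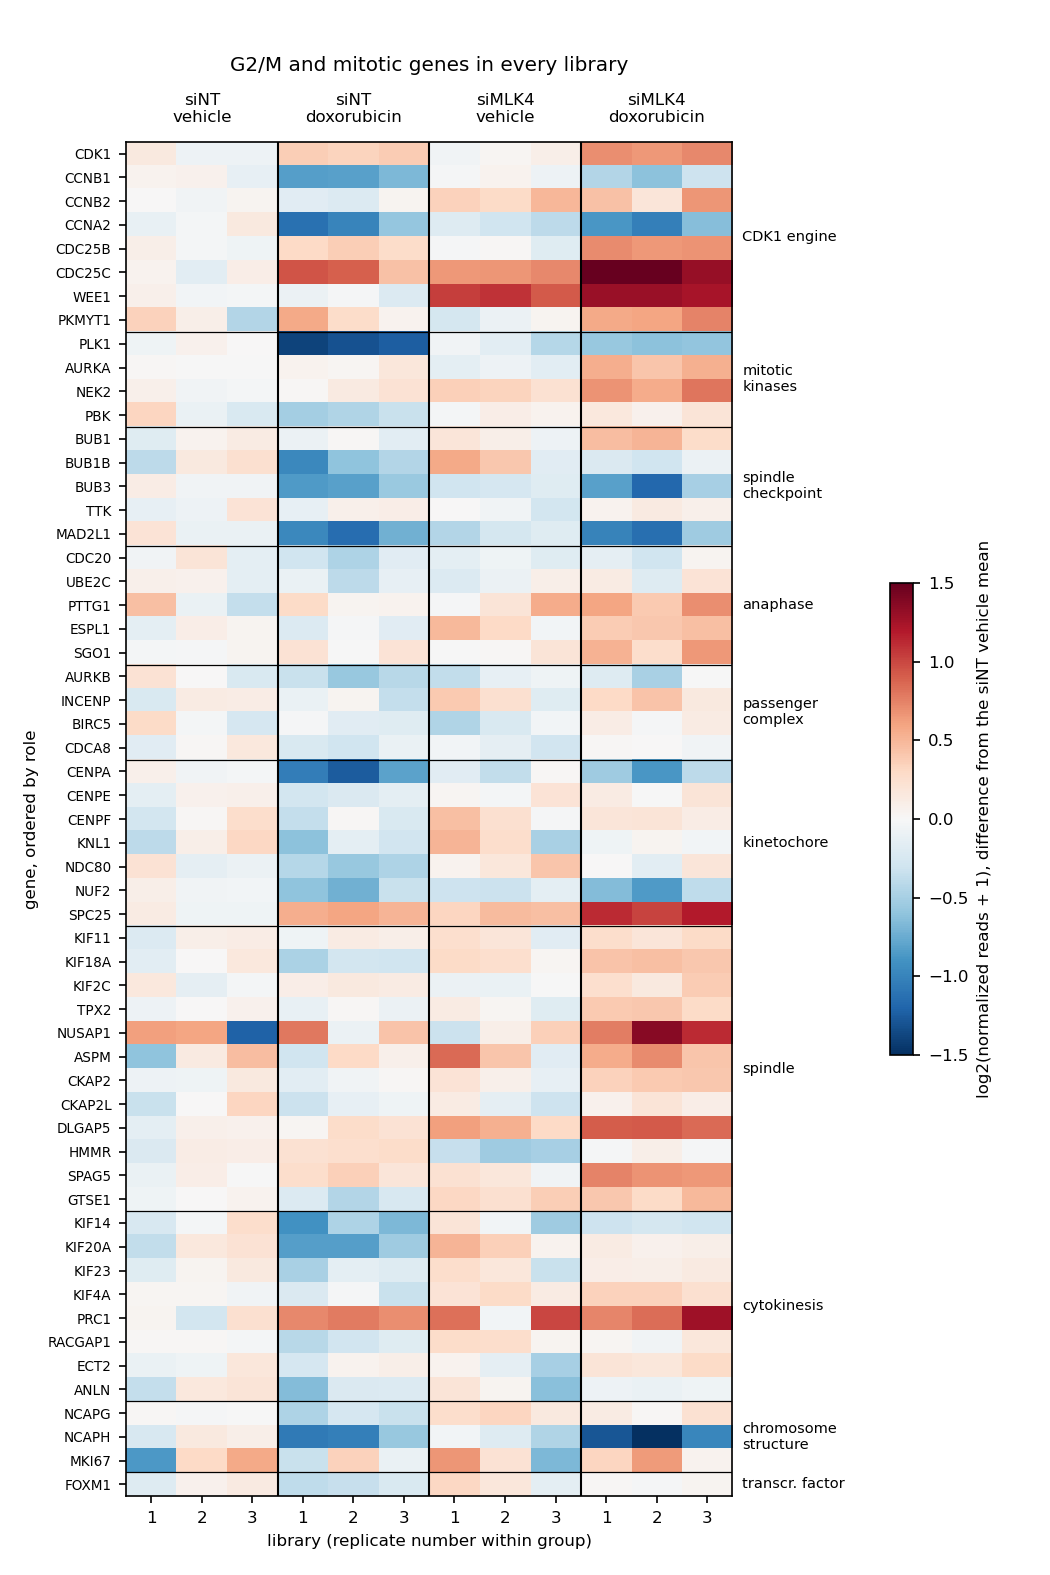
Heat map of the 57 genes (rows, ordered by role) in the 12 libraries (columns, by group and replicate number), as log2(normalized reads + 1) minus the mean of the 3 siNT vehicle libraries. Colours end at ±1.5 and larger differences take the end colour. PLK1 was dark blue in the 3 siNT doxorubicin libraries and NCAPH in the siMLK4 doxorubicin libraries, WEE1 was red in all 6 siMLK4 libraries, and NUSAP1 and PRC1, with few reads, were uneven within groups.

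In siMLK4 cells, the called members were thus CDC25C, 1 higher where 12.6% of all genes were called higher, and NCAPH, 1 lower where 10.6% were. At an adjusted p under 0.05, 18 members rose and 8 fell, where 30.2% of all genes rose and 27.7% fell. The median of the members was 0.14, against 0.02 for all genes. Under library totals 7 members were called higher, 28 rose and 4 fell, with a median of 0.33, against 0.21 for all genes, of which 22.7% were then called higher, 37.8% rose and 19.8% fell. By the size factors, the 8 that fell were CCNB1, CCNA2, PLK1, BUB3, MAD2L1, CENPA, NUF2 and NCAPH. All 8 were among the 20 that fell in siNT cells. These comparisons share no libraries, but they do share the estimate of the spread of each gene, and the overlap among all genes was not counted. BUB3, a checkpoint protein at kinetochores, went from 5730, 5144 and 5109 to 2957, 3022 and 3624 normalized reads in siNT cells (−0.73 ± 0.14, adjusted p = 0.00066) and from 4309, 4463 and 4699 to 3026, 2356 and 3757 in siMLK4 cells (−0.58 ± 0.14, adjusted p = 0.0036). The groups did not overlap under either siRNA.

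By role, the 12 spindle genes had a median log2 fold change of 0.04 in siNT and 0.32 in siMLK4 cells, and 1 and 7 of them rose and 2 and 0 fell, where 29.6% and 30.2% of all genes rose and 27.7% fell in each. The 8 cytokinesis genes had medians of −0.28 and 0.06, and 3 and 0 of them fell. The 4 subunits of the chromosomal passenger complex, AURKB, INCENP, BIRC5 and CDCA8, had medians of −0.17 and 0.14. The 5 anaphase genes had medians of −0.13 and 0.15. The medians were negative under both siRNAs for the 5 spindle checkpoint genes (−0.66 and −0.46), the 7 kinetochore genes (−0.35 and −0.11) and the 3 genes of chromosome structure (−0.34 and −0.12). Within the passenger complex AURKB, Aurora B, fell in siNT cells from 3268, 2826 and 2396 to 2236, 1894 and 2108 normalized reads (−0.43 ± 0.14, adjusted p = 0.020). In siMLK4 cells it had 2173, 2585 and 2693 with vehicle and 2446, 2002 and 2795 with doxorubicin, and the groups overlapped (−0.05 ± 0.14, adjusted p = 0.80).

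Aurora A, AURKA, which matures centrosomes and activates PLK1, had 2267, 2239 and 2238 normalized reads with vehicle and 2327, 2285 and 2536 with doxorubicin in siNT cells and did not pass the test (0.08 ± 0.09, adjusted p = 0.46). With siMLK4 it rose from 2036, 2127 and 2009 to 3293, 2995 and 3261 (0.62 ± 0.09, adjusted p = 5.5e-05), with no overlap. TPX2 also passed in siMLK4 cells alone, with 9973, 10520 and 11010 against 9690, 10610 and 9899 normalized reads in siNT cells (−0.06 ± 0.11, adjusted p = 0.65) and 11440, 10750 and 9219 against 13750, 13900 and 12830 in siMLK4 cells (0.37 ± 0.11, adjusted p = 0.0092). BUB1, a checkpoint kinase, had 1993, 2346 and 2466 against 2127, 2281 and 2018 in siNT cells (−0.08 ± 0.11, adjusted p = 0.58). In siMLK4 cells it had 2559, 2400 and 2140 against 3121, 3228 and 2726 normalized reads, again without overlap (0.35 ± 0.11, adjusted p = 0.017), but this was lost when siMLK4 vehicle library 3 or siMLK4 doxorubicin library 1 or 2 was left out (adjusted p = 0.059 to 0.071).

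**Figure D3:**
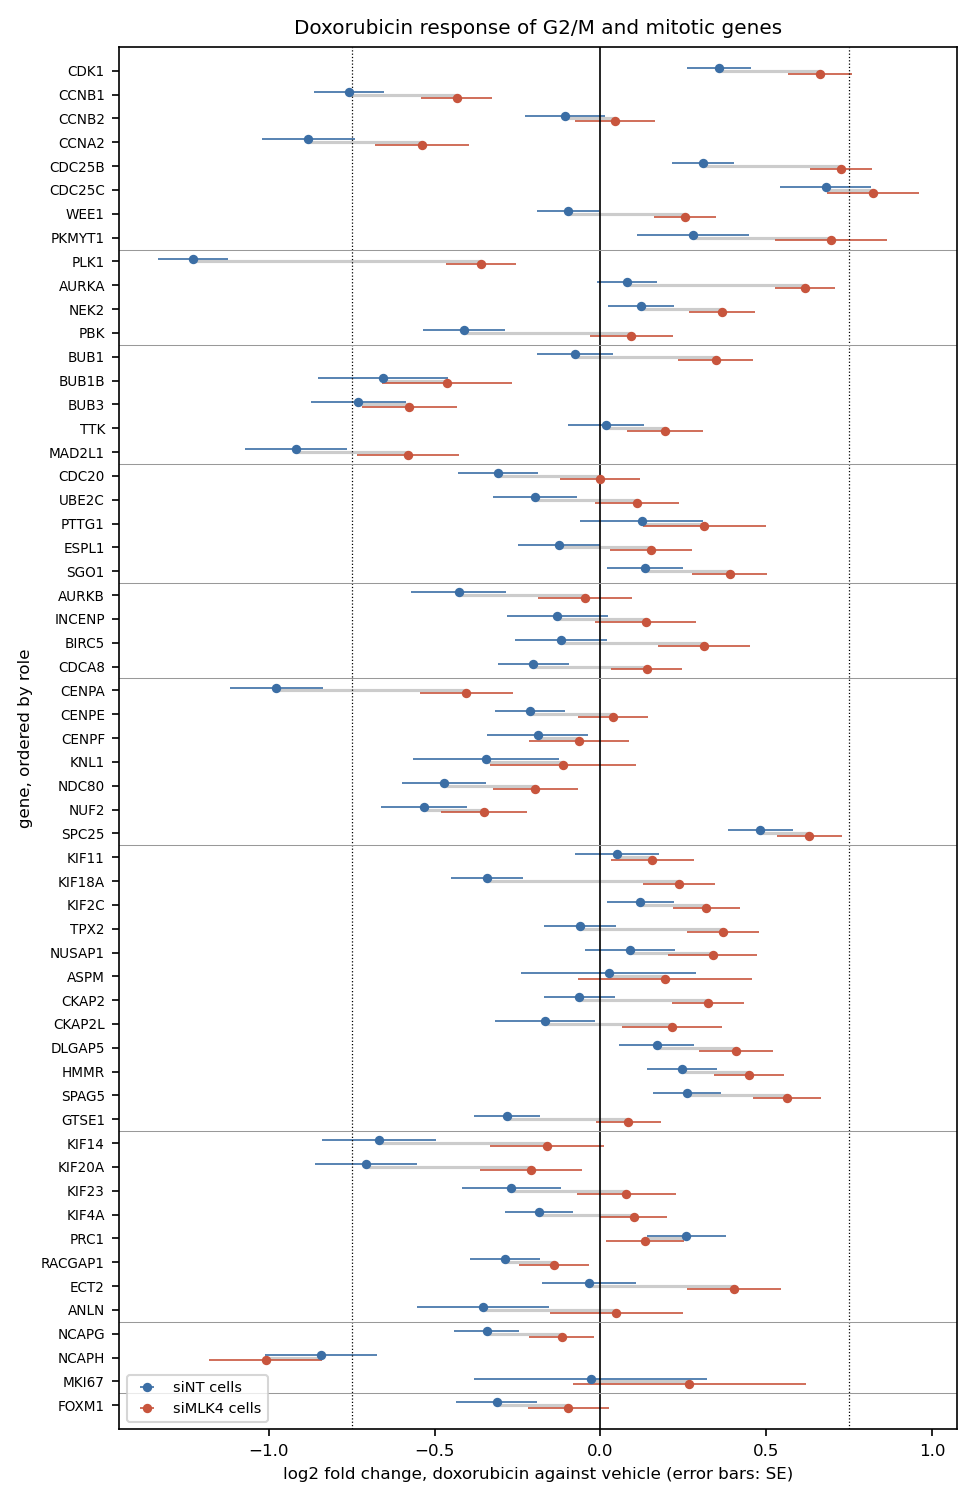
Log2 fold change of each of the 57 genes with doxorubicin against vehicle, in siNT cells (blue) and siMLK4 cells (red), with standard errors from limma. Dotted lines mark the fold threshold of 0.75. The red point lay to the right of the blue point for 55 of the 57 genes, all but NCAPH and PRC1, and the widest gap was that of PLK1, from −1.23 to −0.36.

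The difference between the responses was tested as an interaction. It was positive for 55 of the 57 members, with a median of 0.30, where it was positive for 8866 of the 17013 genes, with a median of 0.01. The members share their libraries, so these 55 are not independent observations. For single genes the test gave little: none was called in either direction, where 0.0999% of all genes were called with a higher and 0.176% with a lower response in siMLK4 cells. At an adjusted p under 0.05 only PLK1 passed (0.87 ± 0.15, adjusted p = 0.012), where 0.576% of all genes passed higher and 0.623% lower, and it missed without siMLK4 doxorubicin library 1 (adjusted p = 0.060). At an unadjusted p under 0.05 there were 17 members, all positive, and 2469 of all genes, 1267 of them positive. The lowest members were NCAPH (−0.17), PRC1 (−0.12) and the spindle motor KIF11 (0.11), none of which passed. PRC1 had 10.57, 8.305 and 12.35 normalized reads with vehicle and 17.53, 18.32 and 17.24 with doxorubicin under siNT, and 19.04, 9.964 and 21.62 and then 17.81, 19.18 and 26.31 under siMLK4. KIF11 had 4039, 4951 and 5043 and then 4466, 5063 and 4958 under siNT, and 5530, 5272 and 4123 and then 5585, 5287 and 5659 under siMLK4, and its vehicle and drug libraries overlapped under both. By adjusted p, AURKA (0.54, adjusted p = 0.058) and the kinesin KIF18A (0.58, adjusted p = 0.083) came next after PLK1. By the size of the difference, KIF18A and CENPA (0.57, adjusted p = 0.19) did. For the other members named above, a different response under the 2 siRNAs was not shown at this threshold.

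Without the drug, few of these genes passed the test between the siRNAs. WEE1 alone was called higher, where 2.51% of all genes were, and none was called lower, where 3.14% were and where 1 member was lower at an unadjusted p under 0.05, also with limma-voom. At an adjusted p under 0.05, 7 members rose, CCNB2, CDC25C, WEE1, NEK2, SPC25, DLGAP5 and GTSE1, and HMMR fell, against 12.7% and 13.0% of all genes. Only 3 rose without siMLK4 vehicle library 2 or siNT vehicle library 2, and 4 without siMLK4 vehicle library 1, siNT vehicle library 3 or siMLK4 doxorubicin library 1. Library totals gave 13 that rose and 0 that fell by limma, where 20.6% of all genes rose and 8.28% fell, and 2 called higher, where 7.92% were. The median of the members was 0.05, against 0.01 for all genes, and 0.20 against 0.16 under library totals. Leaving out single libraries gave medians of the members from 0.002 to 0.085.

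WEE1, the kinase that restrains CDK1, lies at chr11:9573670-9593457 on the plus strand (GRCh38, GENCODE). With vehicle it had 1664, 1535 and 1557 normalized reads in siNT cells and 3263, 3369 and 3000 in siMLK4 cells. The siMLK4 mean was 2.03 times the siNT mean (0.99 ± 0.09, adjusted p = 6.4e-06). With doxorubicin it had 1491, 1571 and 1377 in siNT cells and 3880, 3897 and 3731 in siMLK4 cells, 2.59 times as much (1.34 ± 0.09, adjusted p = 8e-07). Every siMLK4 library was above every siNT library. WEE1 did not pass the test for a different response to the drug (0.35, adjusted p = 0.22).

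CDC25C, which acts on the same residue as WEE1 in the opposite sense, rose as well, to 1.59 times the siNT mean with vehicle (0.60 ± 0.14, adjusted p = 0.0057) and 1.73 times with doxorubicin (0.74 ± 0.14, adjusted p = 0.0015). DLGAP5, a stabilizer of kinetochore fibres, had 2233, 2601 and 2590 normalized reads in siNT and 3795, 3559 and 3029 in siMLK4 vehicle libraries (0.47 ± 0.11, adjusted p = 0.0068). HMMR, a spindle protein that binds hyaluronan outside the cell, had 1056, 1323 and 1318 in siNT and 967.9, 848.9 and 866 in siMLK4 vehicle libraries (−0.44 ± 0.11, adjusted p = 0.0078), the lowest fold change of the 57 there. It did not pass under library totals (−0.31, adjusted p = 0.055) or with only the groups compared in the fit (adjusted p = 0.051). For DLGAP5 and HMMR the siRNA groups were separate. CCNB2 had 1689, 1627 and 1730 normalized reads in siNT and 2145, 2056 and 2384 in siMLK4 vehicle libraries, again with no overlap (0.37 ± 0.12, adjusted p = 0.036). CCNA2 and MAD2L1 were next lowest, each at −0.29, and did not pass the test (adjusted p = 0.15 and 0.19).

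With doxorubicin, 26 of the 57 genes were higher in siMLK4 than in siNT cells at an adjusted p under 0.05, WEE1, KIF20A and KIF18A with the largest differences, and 31 did not pass. Of the 57, 3 were called higher, WEE1, KIF20A and KIF18A, where 2.66% of all genes were, and 7 were under library totals, where 5.11% of all genes were. None was called lower, where 2.93% were, and 2 were lower at an unadjusted p under 0.05, also with limma-voom. None was lower at an adjusted p under 0.05, where 12.7% of all genes were higher and 12.1% lower. In 41 members every siMLK4 library was above every siNT library, and in 1, HMMR, every one was below (1438, 1464 and 1486 normalized reads in siNT and 1208, 1300 and 1207 in siMLK4, −0.23, adjusted p = 0.13), where 22.8% and 21.1% of all genes separated in this way. The median of the members was 0.36, against 0.02 for all genes, and scaling to library totals gave 0.45 against 0.12. Leaving out single libraries gave medians from 0.32 to 0.38 and 18 to 32 members higher at an adjusted p under 0.05.

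KIF20A, the kinesin that carries the chromosomal passenger complex to the central spindle, had 1315, 1314 and 1616 normalized reads in siNT and 2529, 2446 and 2484 in siMLK4 doxorubicin libraries. The groups were separate and the siMLK4 mean was 1.76 times the siNT mean (0.80 ± 0.15, adjusted p = 0.0019). With vehicle it spread from 1805 to 2701 in siNT and from 2421 to 3321 in siMLK4 libraries, which overlapped (0.30 ± 0.15, adjusted p = 0.17). Its call was lost without siMLK4 doxorubicin library 1 or siNT doxorubicin library 1 or 2 (adjusted p = 0.010 to 0.011). KIF18A, which damps chromosome movements at microtubule ends, had 1730, 1984 and 1943 in siNT and 3224, 3288 and 3186 in siMLK4 doxorubicin libraries, 1.71 times as much (0.76 ± 0.11, adjusted p = 0.00023). That call was lost without siNT doxorubicin library 1 (0.70, adjusted p = 0.0017). In vehicle KIF18A had 2142, 2415 and 2672 in siNT and 2924, 2848 and 2455 in siMLK4 libraries, which overlapped.

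**Figure D4:**
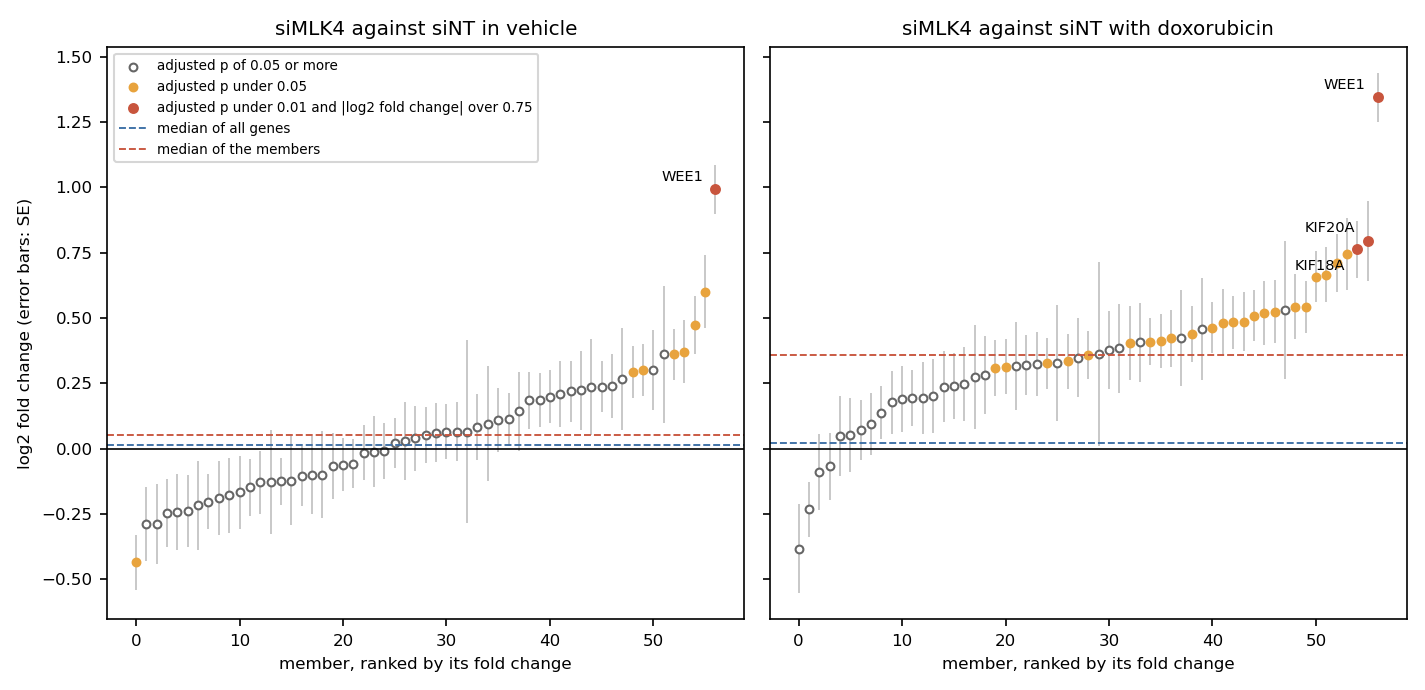
Log2 fold change of the 57 genes in siMLK4 against siNT cells, ranked, with vehicle (left) and with doxorubicin (right), with standard errors from limma. Dashed lines are the medians of the members and of all genes, 0.05 and 0.01 on the left and 0.36 and 0.02 on the right. WEE1 was highest in both, and KIF20A and KIF18A passed the threshold with doxorubicin.

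Of the kinases in the set, PLK1, AURKA, NEK2, PBK, BUB1, WEE1 and CDK1 were higher in siMLK4 cells with doxorubicin, whereas AURKB (0.20, adjusted p = 0.33), TTK (0.07, adjusted p = 0.69), BUB1B (0.46, adjusted p = 0.10) and PKMYT1 (0.32, adjusted p = 0.19) did not pass. PLK1 stood at 1.64 times the siNT mean (0.67 ± 0.11, adjusted p = 0.00049) and AURKA at 1.34 times (0.41 ± 0.09, adjusted p = 0.0045). NEK2, a centrosome-separating kinase, went from 1815, 1973 and 2077 to 2858, 2642 and 3130 normalized reads (0.54, adjusted p = 0.0013), and PBK also passed (0.54, adjusted p = 0.0059). No siMLK4 library of PLK1, AURKA, NEK2 or PBK lay under a siNT library. In the CDK1 group 6 of 8 were higher, CDK1, CCNB1, CCNB2, CDC25B, CDC25C and WEE1, where 12.7% of all genes were. CCNB2 had 1497, 1462 and 1723 in siNT and 2278, 1912 and 2653 normalized reads in siMLK4 libraries (0.52 ± 0.12, adjusted p = 0.0059). CDK1 was at 126% of the siNT mean (0.33 ± 0.10, adjusted p = 0.024) and CCNB1 at 125% (0.31 ± 0.11, adjusted p = 0.047), which did not pass with the replicate number as a block (adjusted p = 0.067) or without a variance trend (0.052). CDK1 lost its adjusted p under 0.05 when any of 5 doxorubicin libraries, all but siMLK4 library 2, was left out (0.057 to 0.086), and CCNB1 when any doxorubicin library but siMLK4 library 2, or siMLK4 vehicle library 1 or 2 or siNT vehicle library 2, was left out (0.056 to 0.15). CCNA2 did not differ beyond its spread (0.05 ± 0.14, adjusted p = 0.82).

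Among the kinetochore genes CENPA, CENPE, NDC80 and SPC25 were higher, 4 of 7, where 12.7% of all genes were, a share that applies to each role below. CENPA was at the threshold (0.40 ± 0.14, adjusted p = 0.049), its groups overlapped, it did not pass with limma-voom (0.051) or without a variance trend (0.053), and it missed when siMLK4 vehicle library 1 or 2, siNT vehicle library 2 or 3, siMLK4 doxorubicin library 1 or 3 or siNT doxorubicin library 1 or 2 was left out (adjusted p = 0.052 to 0.19). Of the 12 spindle genes 6 were higher, KIF18A, TPX2, CKAP2, DLGAP5, SPAG5 and GTSE1, beside the same 12.7% of all genes. TPX2 was at 1.34 times the siNT mean (0.42 ± 0.11, adjusted p = 0.011) but missed without siMLK4 doxorubicin library 1 (adjusted p = 0.052), and DLGAP5 was at 1.65 times (0.71 ± 0.11, adjusted p = 0.00046). GTSE1, a microtubule-binding protein of G2 and mitosis, had 968.1, 825.6 and 947 normalized reads in siNT and 1481, 1366 and 1570 in siMLK4 libraries (0.66, adjusted p = 0.00033). KIF20A, KIF4A and RACGAP1 were higher among the 8 cytokinesis genes, and the condensin subunit NCAPG was higher (0.46, adjusted p = 0.0037) while NCAPH was not (−0.38 ± 0.17, adjusted p = 0.12).

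Of 5 spindle checkpoint genes BUB1 was higher, at 1.41 times the siNT mean (0.49 ± 0.11, adjusted p = 0.0066), while MAD2L1 (0.05) and BUB3 (−0.09) did not pass. Of 5 anaphase genes separase, ESPL1, was higher, from 912.7, 1034 and 932.8 to 1363, 1388 and 1440 normalized reads (0.52, adjusted p = 0.0074). CDC20 had 3076, 2752 and 3367 normalized reads in siNT and 3459, 3082 and 3891 in siMLK4 doxorubicin libraries, which overlapped (0.18 ± 0.12, adjusted p = 0.31). With vehicle the siRNA groups overlapped too, at 3652, 4349 and 3443 in siNT and 3439, 3630 and 3335 in siMLK4 libraries. Its fall with the drug in siNT cells was small (−0.31 ± 0.12, adjusted p = 0.041) and did not pass with the replicate block (adjusted p = 0.058).

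Securin, PTTG1, had 2415, 2036 and 2053 normalized reads in siNT and 2979, 2594 and 3220 in siMLK4 doxorubicin libraries, which were separate but missed the threshold (0.42 ± 0.18, adjusted p = 0.11). Its vehicle libraries spread from 1544 to 2714 in siNT and from 1948 to 2910 in siMLK4 cells. None of the 4 passenger complex genes passed at an adjusted p under 0.05 by limma, and all 4 differences were positive, with the inner centromere protein INCENP at 0.41 (unadjusted p = 0.017).

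FOXM1, the transcription factor that activates many late cell cycle genes, had 2707, 3224 and 3399 normalized reads with vehicle and 2386, 2428 and 2638 with doxorubicin in siNT cells. It was lower in every treated library (−0.31 ± 0.12, adjusted p = 0.041), but not with the replicate block (adjusted p = 0.060). In siMLK4 cells it had 3829, 3478 and 2798 with vehicle and 3122, 3059 and 3182 with doxorubicin, and the groups overlapped. With doxorubicin all 3 siMLK4 libraries were above the siNT libraries without passing the test (0.32 ± 0.12, adjusted p = 0.068).

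MKI67, the proliferation antigen Ki-67, was too uneven for a comparison. Its siNT vehicle libraries had 6544, 14530 and 17520 normalized reads and its siMLK4 vehicle libraries 18760, 13740 and 7408. With doxorubicin it had 9398, 15040 and 11100 in siNT and 14800, 18400 and 12290 in siMLK4 cells. The groups overlapped throughout, and its standard error of 0.35 was the largest of the 57, followed by the spindle gene ASPM at 0.26 and the kinetochore scaffold KNL1 at 0.22. ASPM ranged from 2639 to 5549 in the siNT vehicle and from 3571 to 7247 in the siMLK4 vehicle libraries. Within the vehicle groups MKI67, ASPM and KNL1 were all lowest in siNT library 1 and in siMLK4 library 3. PTTG1 was highest in those same libraries (2714 and 2910). Of the 57 members, 26 were above and 31 below the group mean in siNT vehicle library 1, and 21 and 36 in siMLK4 vehicle library 3. The cause of this spread was not tested.

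**Figure D5:**
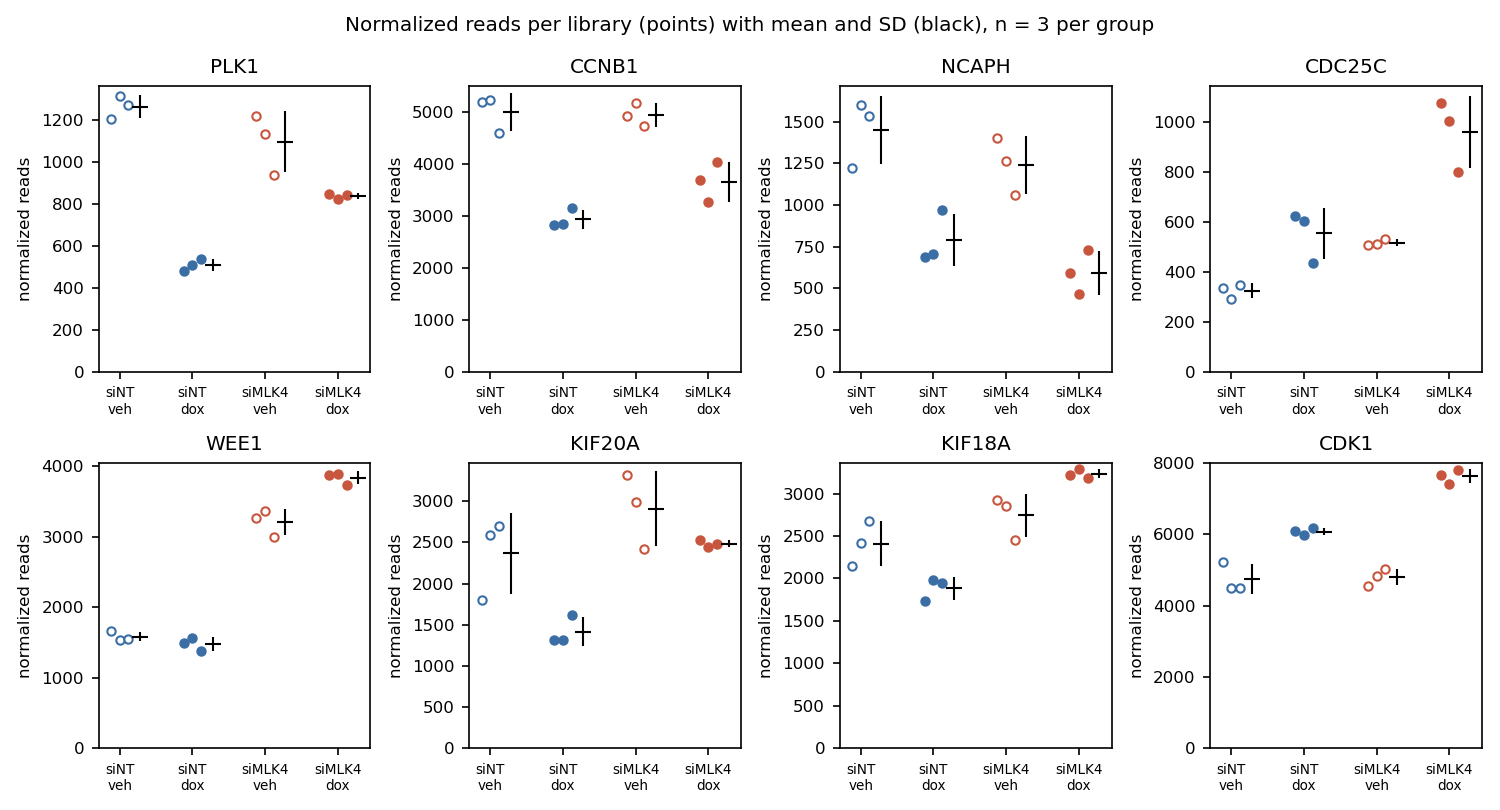
Normalized reads of 8 of the genes in each library (points), with the mean and SD of the 3 libraries of each group (black). Open points are vehicle and filled points doxorubicin, blue siNT and red siMLK4. PLK1 was lowest in siNT doxorubicin libraries (479.9 to 536.3), WEE1 was separated by siRNA (1377 to 1664 against 3000 to 3897), and CDK1 was highest in siMLK4 doxorubicin libraries (7408 to 7812).

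Summed over the 57 genes, the libraries held 167700 ± 12780 normalized reads (SD, n = 3) in siNT vehicle, 145200 ± 8695 in siNT doxorubicin, 173400 ± 18750 in siMLK4 vehicle and 187100 ± 1779 in siMLK4 doxorubicin cells. As a share of library reads the order of the siNT groups turned, at 0.827% ± 0.0717 with vehicle and 0.845% ± 0.0455 with doxorubicin, whereas siMLK4 cells had 0.944% ± 0.119 and 1.16% ± 0.0104. The mean of the siMLK4 doxorubicin libraries was the highest on both scales, although siMLK4 vehicle library 1 had more summed normalized reads than any of them. Within groups the sums spread most in siMLK4 vehicle libraries, from 153000 to 189900 normalized reads, and least in siMLK4 doxorubicin libraries, from 185200 to 188700. The median deviation of the members from the group mean lay between −0.09 (siMLK4 vehicle library 3) and 0.08 (siMLK4 vehicle library 1) on the log2 scale, with members deviating both ways in every library. In siNT doxorubicin library 1, 43 of the 57 were below the group mean. By promoter, the 35 genes with a CHR had a median difference of 0.38 between siMLK4 and siNT cells with doxorubicin and the 10 without had 0.31. For the drug in siNT cells these medians were −0.13 and −0.32, in siMLK4 cells 0.14 and −0.005, for the knock-down in vehicle 0.07 and 0.02, and for the difference between the responses 0.29 in each.

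Related genes outside the set were read from lists of the same machinery. DNA replication genes, which belong to S phase, had 6 of 50 called higher with doxorubicin in siNT and 9 in siMLK4 cells, where 12.1% and 12.6% of all genes were, none lower by limma or limma-voom (8 and 5 lower at an unadjusted p under 0.05 by limma), with medians of 0.14 and 0.31 against −0.17 and 0.14 for the mitotic members. Among them GINS4, a subunit of the replicative helicase, rose by 1.61 and 1.87, and cyclin E1, CCNE1, by 1.22 and 1.46. Cyclins E1 and E2, CCNE1 and CCNE2, were also called higher in siMLK4 cells with vehicle (0.90 and 1.48) and with doxorubicin (1.14 and 1.08), the only 2 of the 50 called in either, where 2.51% and 2.66% of all genes were called higher, of which CCNE1 with vehicle missed an adjusted p of 0.01 with only the groups compared (0.013). Among 23 genes of DREAM, B-MYB and NF-Y, 3 were called higher in siNT and 7 in siMLK4 cells with the drug, beside the same 12.1% and 12.6% of all genes, led by MYBL1 (1.81 and 2.24) and E2F2 (1.35 and 1.74), and none lower by limma or limma-voom (3 and 4 lower at an unadjusted p under 0.05 by limma). E2F1 and E2F2, activators of S phase genes, were called higher in siMLK4 than in siNT cells with doxorubicin (0.91 and 0.78), where 2.66% of all genes were.

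Of 22 genes of the G2 checkpoint and mitotic entry, 5 were called lower in siMLK4 than in siNT cells with vehicle, CDK7, PLK3, GADD45A (−1.15), CDKN1A and CDC25A (−0.77), where 3.14% of all genes were, and none higher by limma or limma-voom (3 higher at an unadjusted p under 0.05). With doxorubicin 3 were called lower and 1 higher, where 2.93% and 2.66% of all genes were. The drug itself gave 4 calls up and 2 down in siNT cells and 4 up and 1 down in siMLK4 cells, beside 12.1% up and 10.6% down and 12.6% up and 10.6% down among all genes. The CDK inhibitor CDKN1A had 3465, 2005 and 2657 normalized reads with vehicle and 5846, 5286 and 5631 with doxorubicin under siNT. Under siMLK4 it had 1257, 1436 and 1715 and then 4899, 4398 and 5157. It rose with the drug under both siRNAs (1.06 and 1.69) and was lower in siMLK4 than in siNT cells with vehicle (−0.84 ± 0.16, adjusted p = 0.0022). With doxorubicin the difference did not pass (−0.21, adjusted p = 0.37), although every siMLK4 library was below every siNT library. CDKN1A did not pass the test for a different response to the drug (0.62, adjusted p = 0.22). CHEK2, the checkpoint kinase, fell by 1.72 and 1.30 on the log2 scale. CDK7, which activates CDK1 by phosphorylation, had 1440, 1187 and 1230 normalized reads in siNT vehicle and 382.7, 396.6 and 508.1 in siMLK4 vehicle libraries (−1.48 ± 0.12, adjusted p = 2.3e-06). With doxorubicin it had 1407, 1406 and 1478 and 462.1, 410.3 and 523.5 (−1.52 ± 0.12, adjusted p = 2.7e-06), so the siRNA groups were far apart in both. GADD45B, a stress-induced gene, rose by 1.13 and 1.33 with the drug. PLK3 was called lower in siMLK4 than in siNT cells with vehicle (−1.18) and with doxorubicin (−0.76). PLK2 was lower in both as well (−0.41 and −0.82) and called with doxorubicin, short of the fold threshold under library totals. Cyclin F, CCNF, had 1298, 1532 and 1233 against 726.3, 745.1 and 657 normalized reads in siNT cells (−0.88 ± 0.11, adjusted p = 1.4e-05) and 1858, 1939 and 1615 against 1729, 1651 and 1577 in siMLK4 cells (−0.12 ± 0.11, adjusted p = 0.37), and a difference between the responses of 0.76 (adjusted p = 0.028). BTG2, an antiproliferative gene, passed that test in the other direction (−0.68, adjusted p = 0.042), with 1.02 in siNT and 0.34 in siMLK4 cells.

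Of 34 further kinetochore genes, doxorubicin gave 7 calls down and 3 up under siNT, and 3 down and 5 up under siMLK4. The shares of all genes were 10.6% down and 12.1% up under siNT and 10.6% down and 12.6% up under siMLK4. SKA1, a microtubule coupler, was lowest in siNT cells (−1.08, and −0.63 in siMLK4 cells) and ZW10 fell under both siRNAs (−0.92 in each), while CENPU (1.08 and 1.39) and KNTC1 (0.96 and 1.10) rose. Of further inner kinetochore subunits, CENPK fell (−0.75 and −0.92) and CENPQ rose (0.92 and 1.34) under both. MAD1L1, a checkpoint protein with few reads, had 70.45, 60.21 and 39.29 normalized reads in siNT vehicle and 9.017, 18.93 and 21.62 in siMLK4 vehicle libraries, the one gene of this list called between the siRNAs (−0.84, adjusted p = 0.0013, and 0.018 with only the groups compared). Among all genes 3.14% were called lower in that comparison. Of 26 further spindle genes, 6 were called lower in siNT and 2 in siMLK4 cells with the drug, where 10.6% of all genes were in each, none higher by limma or limma-voom (3 and 6 higher at an unadjusted p under 0.05 by limma). PSRC1 (−0.89) and DEPDC1B (−0.87) were lowest in siNT cells, with 0.11 (adjusted p = 0.42) and −0.53 (adjusted p = 0.0036) in siMLK4 cells. The centrosomal CEP192 (−0.82 and −1.03) and HAUS4 of the augmin complex (−0.83 and −0.88) fell under both siRNAs. PSRC1 and DEPDC1 were called higher in siMLK4 than in siNT cells with doxorubicin (1.01 and 0.77), where 2.66% of all genes were. Of 18 cohesin and condensin genes, 1 was called higher and 1 lower in siNT cells and 2 higher in siMLK4 cells, beside the same shares of all genes. ESCO2, which acetylates cohesin in S phase, rose most (1.30 and 1.58). Sororin, CDCA5, rose (0.54 and 1.10) and STAG1 fell (−0.77 and −0.65) under both siRNAs. Of 17 genes of the anaphase-promoting complex and its partners, UBE2S (−1.10) and ANAPC5 (−0.82) were called lower in siNT cells, a share near the 10.6% of all genes. Their values in siMLK4 cells were −0.34 (adjusted p = 0.20) and −0.71 (adjusted p = 3.7e-05). ANAPC15 was called lower (−0.90) and the inhibitor FBXO5 higher (0.84) in siMLK4 cells, where 10.6% and 12.6% of all genes were. Both passed an adjusted p under 0.05 in the same direction in siNT cells (−0.45 and 0.67). None of UBE2S, ANAPC5, ANAPC15 and FBXO5 passed for a difference between the responses by limma (adjusted p = 0.27, 0.79, 0.43 and 0.62). ANAPC2 was called higher in siMLK4 than in siNT cells with doxorubicin (0.84), where 2.66% of all genes were. Under library totals STAG1, ANAPC5, CCNF, PSRC1 and DEPDC1B missed the fold threshold in siNT cells, each still at an adjusted p under 0.01.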

How the data were processed

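Total RNA from 12 HCC1806 samples, 3 per group and transfected in triplicate, was sequenced as poly(A) mRNA, paired-end, on an Illumina NovaSeq. The methods give triplicate transfections and a general statement that experiments were repeated, without saying whether the 3 libraries of a group came from separate experiments, so p-values measure only the spread between these samples, which may be technical. Per the study's methods and the submitters' processing notes, the authors trimmed reads with Trimmomatic 0.39, aligned them with HISAT2, removed optical duplicates, counted stranded reads with HTSeq 0.6.0 and transformed counts with DESeq2 1.26.0. The methods name GRCh38 and the notes hg19. The deposited values are variance-stabilized expression on a log2 scale, which understates the fold changes of genes with few reads. Inverting the transformation gave whole reads (tolerance 0.05) for every value, with 16759025 to 19302248 reads and size factors of 0.8516 to 1.199 per library, and normalized reads are these reads divided by the size factor.

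The deposited log2 values were fitted with limma 3.58.1 (R 4.3.3, eBayes with trend) over 12 libraries in 1 model with 4 group means. Contrasts were drug against vehicle within each siRNA, siMLK4 against siNT within each treatment, and the difference between the drug responses. Tests were two-sided, with Benjamini-Hochberg adjustment over 17013 genes. Standard errors (±) of log2 fold changes come from this fit, and means are given with SD where stated. The fit was tested on simulated data, in which 200 genes with a mean of at least 500 normalized reads were changed. It called 93% of those changed by a log2 fold change of ±1 and 100% of those changed by more. Smaller changes and changes in genes with fewer reads were not simulated. Symbols came from GENCODE release 44, which matched 16957 genes, and levels between genes are per kb of merged exons. Promoters are RefSeq windows.

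The 57 members and all lists were chosen with earlier results of these data known. By rule, values in every library were given for 15 members and for the 3 with the lowest and the 3 with the highest fold change in each contrast, and in the other lists the 2 lowest and 2 highest called genes were named. The values in every library of CCNB2, NEK2, GTSE1 and ESPL1, and the naming of GADD45A, CDC25A and BTG2, fall outside this rule and were chosen after they were seen. The naming of SPC24 falls outside it too, as do the values in every library of CDKN1A, CDK7, CCNF, MAD1L1 and PSRC1, which are not members. Libraries with the same replicate number deviated together in every pair for the drug in siNT cells (correlations 0.46, 0.105 and 0.205) and for the knock-down with doxorubicin (0.19, 0.516 and 0.559), a pairing read from the values alone, but not for the drug in siMLK4 cells (−0.0774, 0.176 and 0.337) or the knock-down in vehicle (−0.723, 0.325 and −0.523). Alternatives were a replicate block, leaving out each library, TMM or library-total scaling, limma-voom on the recovered reads, log2(normalized reads + 1), a minimum of 10 reads in every library, only the groups compared, no variance trend, TTTAAA as an added CHR letter match (TTCAAA is TTTGAA on the other strand) and a narrower promoter window.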

Additional observations from a re-analysis of the deposited data

Results flagged for a closer look

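The drug response of PLK1 differed between siMLK4 and siNT cells by 0.868 on the log2 scale (limma interaction, adjusted p = 0.012), and it missed an adjusted p under 0.05 without siMLK4 doxorubicin library 1 (0.060).

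PSRC1, a microtubule-associated protein, differed by 0.995 (limma interaction, adjusted p = 0.0063). It had 799.7, 768.3 and 711.7 normalized reads with vehicle and 403.3, 362.4 and 393.4 with doxorubicin in siNT cells, and 674.3, 790.1 and 854.1 against 888.7, 841.4 and 770.3 in siMLK4 cells. The siNT groups were separate and the siMLK4 groups overlapped. With the replicate block its adjusted p was 0.015. The cause of either difference was not tested.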

How the results depend on the processing

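No called gene among those named changed direction under any alternative run, but the median of the members for the drug in siNT cells turned from −0.17 to 0.069 under library totals. TMM scaling changed the call of none of 149 results for named genes. Library totals moved most counts. In siNT cells the drug then gave 2 members called higher and 2 lower, 13 and 9 at an adjusted p under 0.05. CCNA2, CCNB1, MAD2L1 and NCAPH lost the fold threshold, and AURKB, CDC20 and FOXM1 were among those that lost an adjusted p under 0.05. In siMLK4 cells it gave 7 called higher, 28 and 4 at an adjusted p under 0.05, and a median of 0.331. CCNB1, CENPA and PLK1 were among the members that no longer passed there. The knock-down in vehicle gave 2 called higher, 13 and 0 at an adjusted p under 0.05 and a median of 0.195, and with doxorubicin 7 called higher and a median of 0.452. In siNT cells limma-voom and log2(normalized reads + 1) each called 1 member higher with the drug. With only the groups compared, 4 members were higher and 0 lower at an adjusted p under 0.05 for the knock-down in vehicle, where HMMR was lost, as under library totals. That fit also lost CDC20 for the drug in siNT cells (0.064), WEE1 for the drug in siMLK4 cells (0.065), and MAD1L1 and CCNE1 for the knock-down in vehicle (above 0.01), and FOXM1 and PTTG1 passed for the knock-down with doxorubicin (0.015 and 0.013). Without a variance trend CCNB1 and CENPA were lost there (0.052 and 0.053), and with limma-voom and log2(normalized reads + 1) CENPA was. With at least 10 reads in every library, 2 members passed for the difference between responses.

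Leaving out single libraries gave, for the drug in siNT cells, 0 to 1 members called higher, 5 to 9 lower and medians of −0.256 to −0.11. In siMLK4 cells it gave 0 to 2 called higher and 1 to 2 lower. For members at an adjusted p under 0.05 it gave 3 to 7 higher for the knock-down in vehicle, 18 to 32 higher and 0 to 1 lower for the knock-down with doxorubicin, and 0 to 1 higher for the difference between responses. The replicate block kept the calls of 145 results and lost 4, CDC20 and FOXM1 for the drug in siNT cells (adjusted p = 0.058 and 0.060), CCNB1 for the knock-down with doxorubicin (0.067), and PSRC1 for the difference between responses (0.015, above the 0.01 threshold). Adding TTTAAA to the CHR letters raised the share of members to 91.1%, of the genes of the table to 22.8% and of the replication genes to 16.7%. The causes were not tested. MKI67 and ASPM had the largest standard errors of the members, and NUSAP1 and PRC1 had few reads.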
